A study of Mus musculus with 4 samples.

Results

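The MYC, MAX and MXD network was followed here through 10 genes, Myc, Mycn, Mycl, Max, Mxd1, Mxd3, Mxd4, Mxi1, Mnt and Mlx, in hematopoietic stem and progenitor cells of wild-type and Asxl1 knock-in mice. The genes were taken by symbol from a table with 1 row per RefSeq transcript. They accounted for 10 of its 13749 symbols and 17 of its 18691 transcripts. The cells were LSK cells, the lineage-negative, Sca-1-positive and Kit-positive bone marrow fraction that holds stem cells and multipotent progenitors, sorted by flow cytometry. The wild-type group (WT) was Asxl1+/+ and the knock-in group (KI) was Asxl1G643fs/+, which carries a frameshift allele of the chromatin gene Asxl1 on 1 chromosome. Both were C57BL/6 mice aged 8 weeks, with 8 mice per genotype, and each genotype gave 2 RNA sequencing libraries, numbered 1 and 2. The labels did not say whether the libraries of a genotype came from separate animals or from a pool, and p-values here reflect no more than how far these libraries spread, which may be technical.

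The proteins of this network share a helix-loop-helix and leucine zipper region and bind DNA as pairs. MYC, MYCN and MYCL each pair with MAX, bind the E-box CACGTG and raise transcription of genes for growth and ribosome production. The MXD proteins, MXI1 and MNT also pair with MAX, bind the same E-box and recruit SIN3 and histone deacetylases, which repress transcription. MLX is a second shared partner, which pairs with the glucose-sensing Mondo proteins and with some MXD proteins and MNT. In mouse bone marrow, Myc and Mycn together are needed for stem cells to survive, and loss of Myc alone leaves stem cells held in their niche.

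Transcript structure separates forms of 3 of these genes, and the sequences that set the forms apart are given first. Of the 14 tested network transcripts, 2 forms of Mxi1 had genotypes that did not overlap. This count is not above the background, which was 16.8% of all tested transcripts. Coordinates are of GRCm38, from the GENCODE M21 annotation matched by RefSeq accession, which found all 17 transcripts. The 3 Mxi1 transcripts in the table each have a first exon of their own, followed by the same 5 exons, the last of which ends at different places. The first exon of NM_010847 carries 73 coding bases, which encode the N-terminal SIN3-binding helix of the strong repressor form known in the mouse. NM_001008543 starts 995 bases downstream, and its coding sequence begins only in the second exon, so that it is 108 coding bases shorter and lacks that helix. NM_001008542 starts farthest upstream and has another coding first exon. Whether that exon encodes a SIN3-binding helix of its own was not examined. In the lines that follow capitals mark the start codon, and the last 2 lines give the first 60 coding bases.
Mxi1 NM_010847, chr19:53329648-53329720, plus strand: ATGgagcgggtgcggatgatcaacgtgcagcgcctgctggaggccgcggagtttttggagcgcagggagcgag
Mxi1 NM_001008543, chr19:53331386-53331445, plus strand: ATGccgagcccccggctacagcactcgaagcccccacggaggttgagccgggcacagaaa
Mxi1 NM_001008542, chr19:53310700-53310759, plus strand: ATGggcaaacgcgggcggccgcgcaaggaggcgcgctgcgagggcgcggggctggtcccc

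Max and Mlx have forms with and without a short coding exon. The longer Max transcript NM_008558 holds an exon of 27 bases that NM_001146176 lacks, and the Mlx transcript NM_001159385 holds an exon of 90 bases that NM_001159384 lacks. The other Mlx transcript, NM_011550, keeps that exon and has 162 further coding bases. The lines give these exons, shown because the share of a gene's FPKM that each form took is described later.
Max NM_008558, chr12:76961263-76961289, minus strand: gaagagcaaccgaggtttcaatctgcg
Mlx NM_001159385, chr11:101088236-101088325, plus strand: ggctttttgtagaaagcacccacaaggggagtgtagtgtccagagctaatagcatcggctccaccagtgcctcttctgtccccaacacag
The Myc transcripts NM_010849 and NM_001177353 differ by 3 coding bases and in the length of their untranslated ends, and those of Mycl have the same coding sequence.

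The E-box that the network binds was also found at some of its own promoters. RefSeq promoter windows for GRCm38.p6 ran from 250 bases before to 50 after a start. They were matched for 9 of the 10 genes, all but Myc, and gave 11 windows. The motif CACGTG, which reads the same on both strands, was present in 4 of them, those of Max, Mlx, Mnt and Mxd4, against 7.15% of all 32851 windows in the table. Counted from the start used for the window, its first base lay at -3 in Max, -40 in Mlx, -123 in Mnt and -219 in Mxd4. The Max transcripts in GENCODE M21 begin farther downstream, at chr12:76962201 and chr12:76962185, so the motif lies farther from their starts. A match is a description of the letters and not of binding. The promoter of Myc was not searched. The lines give the motif in capitals with 20 bases on each side.
Max, chr12:76962226-76962271, minus strand: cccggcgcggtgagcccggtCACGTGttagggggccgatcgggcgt
Mlx, chr11:101087230-101087275, plus strand: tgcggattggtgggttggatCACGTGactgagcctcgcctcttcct
Mnt, chr11:74830781-74830826, plus strand: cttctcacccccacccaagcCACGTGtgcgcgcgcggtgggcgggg
Mxd4, chr5:34187904-34187949, minus strand: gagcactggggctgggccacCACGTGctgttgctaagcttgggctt
The 3 Mxi1 windows held none, and the line gives that of the start of NM_010847, because this transcript stood higher in both KI libraries.
Mxi1, chr19:53329163-53329462, plus strand: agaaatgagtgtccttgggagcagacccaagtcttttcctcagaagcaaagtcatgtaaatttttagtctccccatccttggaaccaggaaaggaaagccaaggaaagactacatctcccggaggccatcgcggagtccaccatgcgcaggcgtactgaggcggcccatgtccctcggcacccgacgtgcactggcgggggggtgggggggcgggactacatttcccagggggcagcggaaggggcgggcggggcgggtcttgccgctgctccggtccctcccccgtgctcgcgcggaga

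The libraries as a whole set limits on what follows. The deposited FPKM (fragment counts divided by transcript length and by library total) summed to between 324255 and 411542 per library, and the sequencing depth is unknown. Libraries of the same number were more alike than libraries of the same genotype, with a Spearman correlation across genes of 0.984 and 0.992 within the numbers and of 0.963 and 0.966 within the genotypes. Asxl1 itself stood at 20.8 and 18.8 FPKM in WT-1 and WT-2 and at 22.2 and 19.1 in KI-1 and KI-2. A gene level does not show the frameshift, so it does not check the genotype. The gate genes Ly6a (Sca-1) and Kit were present in every library, at 20.7 to 41.9 and 81.9 to 105 FPKM. B cell markers summed to 24.8 to 98.7 FPKM, erythroid markers to 8.55 to 26.2 and mature neutrophil markers to 3.55 to 86.8, the last lower in number 2 than in number 1 within both genotypes. The markers of T cells (Cd3d and Cd4) and of macrophages (Emr1 and Vcam1) listed in the table summed to at most 1.85 and 0.530 FPKM. Changes in the number of cells of a type cannot be told apart from changes in RNA per cell in such bulk samples.

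FPKM was summed over the transcripts of a gene and compared on the log2(FPKM + 1) scale, on which a low gene shows less than its full change. Genes with a mean of at least 1 FPKM were tested, 11083 in all and 9 of the 10 network genes, and Mycl fell below this. None of the 9 passed limma's test between KI and WT at a Benjamini-Hochberg adjusted p of 0.05 (adjusted p = 1 for each), and 0 had an unadjusted p under 0.05. Of all tested genes, 0% passed the adjusted test and 0.424% had an unadjusted p under 0.05. The difference between the library numbers enters the spread of this test. The 95% interval of the KI minus WT difference in Myc, for example, ran from -0.85 to 0.59 on the log2 scale, so that the absence of a call does not show that levels were alike. An exact two-sided permutation test of 2 against 2 libraries cannot give a p below 0.33. Each difference is therefore also given within number 1 and within number 2. Where 4 values follow each other, WT comes first and library 1 before library 2.

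Myc was the most abundant of the 10 genes and Mycl the least. Myc encodes the family member that most dividing blood progenitors use. It stood at 116 and 145 FPKM in libraries 1 and 2 of WT and at 96.3 and 147 in those of KI. The genotypes overlapped, with KI-1 the lowest library and KI-2 level with WT-2. The WT mean was 131 ± 20.5 FPKM and the KI mean 122 ± 35.7 (SD, n = 2), a log2 difference of -0.13 with SE 0.29. Within the numbers the difference was -0.27 and 0.015, and its overall sign turned without WT-2 (0.031) and without KI-1 (0.17). Myc belongs to the genes that cells induce soon after a stimulus, and the 10 immediate early genes listed as markers summed to 8540 and 2715 FPKM in the WT libraries and to 4197 and 2413 in the KI libraries. Their part in the Myc values was not tested.

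Mycn, the family member linked to stem cells, had the largest difference by genotype among the 9 tested genes. It stood at 9.94 and 14.6 FPKM in libraries 1 and 2 of WT and at 5.47 and 10.9 in those of KI. KI was below WT within both numbers, at 55.1% of the WT level in number 1 and 74.6% in number 2, while KI-2 stood above WT-1. The means were 12.3 ± 3.29 and 8.18 ± 3.83 FPKM (SD, n = 2), a log2 difference of -0.57 with SE 0.36 and a 95% interval from -1.45 to 0.31 (limma, adjusted p = 1). The difference was lower than -0.3 within both numbers in no other network gene that was tested, against 1.61% of all tested genes, a size chosen after the values were seen. It was -0.13 without KI-1, -0.32 without WT-2, -0.83 without WT-1 and -1.01 without KI-2. Of the 5 stem cell markers read here (Slamf1, Procr, Mecom, Hlf and Fgd5), 4 had lower values in KI in both numbers, against 25.5% of all tested genes. None of the 5 passed the test, and their summed level was 81.2 and 139 FPKM in WT-1 and WT-2 and 73.5 and 110.2 in KI-1 and KI-2. The granulocyte-monocyte markers summed to 568 and 631 FPKM in WT and to 1052 and 750 in KI. Of these 8 markers, 7 were higher in KI in both numbers, against 28.7% of all tested genes, and none passed the test. Whether the make-up of the sorted cells enters the Mycn value was not tested.

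Mycl, which is better known from dendritic cells and lung tumours, was near the lower end of what was listed. It stood at 0.337 and 0.362 FPKM in WT and at 0.750 and 0.460 in KI, with both KI libraries above both WT libraries. These values came from NM_001303121, and NM_008506 was listed at 1.4e-05 FPKM or less. Mycl was below the filter and had no test beside the other 9, and without the filter it was not called.

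**Figure D1:**
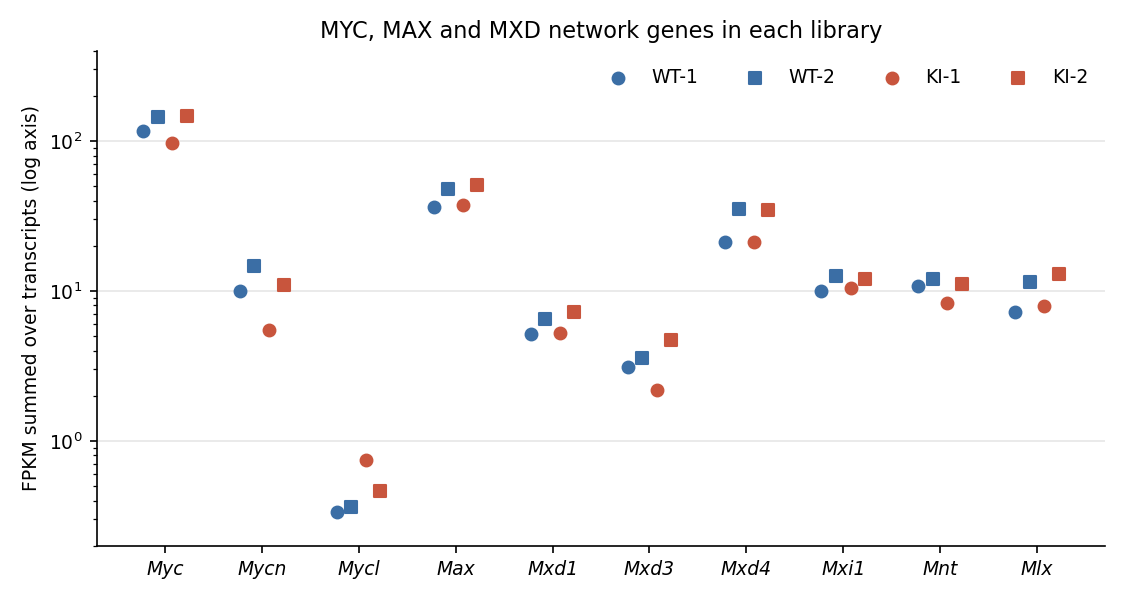
FPKM of the 10 network genes (log axis) in each of the 4 libraries, blue for WT, red for KI, circles for number 1 and squares for number 2. The WT and KI points overlap for every gene but Mycl, and number 2 lies above number 1 within both genotypes for the other 9 genes.

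Max, the obligate partner of the MYC proteins, stood at 36.3 and 47.7 FPKM in libraries 1 and 2 of WT and at 37.3 and 50.7 in those of KI. The libraries grouped by number and not by genotype, and KI exceeded WT by 0.038 and 0.085 on the log2 scale within the numbers. Among the 4 MXD family genes, Mxd4 was the most abundant and likewise followed the number, at 21.1 and 35.3 FPKM in WT-1 and WT-2 and 21.1 and 34.9 in KI-1 and KI-2. Within the numbers Mxd4 differed between the genotypes by -0.0036 and -0.016. Mxd1, which is induced as myeloid cells mature, stood at 5.13, 6.48, 5.28 and 7.23 FPKM in the same order of libraries, with differences of 0.036 and 0.14. Mxd3, which is known from proliferating S-phase cells, stood at 3.10, 3.57, 2.20 and 4.73 FPKM, and its difference turned from -0.36 in number 1 to 0.33 in number 2.

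Mxi1 as a whole stood at 9.93 and 12.7 FPKM in libraries 1 and 2 of WT and at 10.5 and 11.9 in those of KI, a log2 difference of -0.00087 with SE 0.23. The KI values lay between the WT values, and the 2 numbers had opposite signs. Mnt, the most widely expressed MAX-binding repressor, stood at 10.9 and 12.03 FPKM in WT-1 and WT-2 and at 8.34 and 11.1 in KI-1 and KI-2. Mnt was lower in KI within both numbers, by 0.34 and 0.11 on the log2 scale, with an overall difference of -0.23 and SE 0.24. Without KI-1 the overall Mnt difference was -0.044, without KI-2 -0.41. Mlx stood at 7.24, 11.5, 7.94 and 12.9 FPKM and was higher in KI within both numbers, by 0.12 and 0.16. Of the 9 tested genes, 3 (Max, Mxd1 and Mlx) were higher in KI in both numbers, against 28.7% of all tested genes. Another 3 (Mycn, Mxd4 and Mnt) were lower in both, against 25.5%, and 0 had groups that did not overlap, against 13.5%. These shares are near the background. The median KI minus WT difference over the 9 genes was -0.0100, beside 0.0075 over all tested genes. Without 1 library, that median over the network genes ran from -0.36 without KI-2 to 0.28 without KI-1.

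The order of the levels was clear at the top and the bottom. The lowest Myc library was above the highest Max library, the lowest Max library above the highest of Mxd4, and the lowest Mxd4 library above the highest of each remaining gene. Mxi1, Mnt, Mycn and Mlx overlapped in their 4 libraries, with means of 11.3, 10.6, 10.2 and 9.89 FPKM. Mxd1 overlapped only with Mycn, and Mxd3 and then Mycl lay below it without overlap.

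Scaling a whole library by 1 factor leaves shares within it as they are, so shares of the network were compared too. The summed FPKM of the 10 genes was 220 and 290 in the WT libraries and 195 and 292 in the KI libraries. Myc, Mycn and Mycl held 57.5% and 55.4% of it in WT-1 and WT-2 and 52.5% and 54.2% in KI-1 and KI-2. Both KI libraries were below both WT libraries, by 3.04 percentage points on average (56.4% ± 1.48 against 53.4% ± 1.23, SD, n = 2; exact two-sided permutation p = 0.33, the smallest possible). This difference was -1.99 points without WT-1 and -4.08 without WT-2. Max held 16.5% in both WT libraries and 19.1% and 17.4% in KI-1 and KI-2. The 4 MXD family genes held 17.8% and 20.04% in WT and 20.04% and 20.2% in KI, and the genotypes overlapped.

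Myc stood at 3.20 and 3.05 times Max in WT-1 and WT-2 and at 2.58 and 2.90 times in KI-1 and KI-2. Myc stood at 11.7 and 9.96 times Mycn in WT and at 17.6 and 13.5 times in KI, so that KI was above WT with no overlap (exact two-sided permutation p = 0.33). The KI mean ratio was higher by 4.70, by 2.64 without KI-1 and by 6.75 without KI-2. The MYC family stood at 2.52 and 2.29 times the MXD family and Mnt in WT and at 2.16 and 2.26 times in KI. These ratios share members and are not separate results.

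The forms of Mxi1 stood apart between the genotypes in opposite directions, while their sum overlapped; none passed the adjusted test. NM_010847, whose first exon encodes a SIN3-binding helix, stood at 6.10 and 8.50 FPKM in WT-1 and WT-2 and at 9.19 and 10.1 in KI-1 and KI-2. Both of its KI libraries were above both WT libraries. NM_001008543, which lacks that exon, stood at 3.04 and 0.934 FPKM in WT-1 and WT-2 and at 0.256 and 0.000276 in KI-1 and KI-2. Both of its KI libraries were below both WT libraries. NM_001008542 stood at 0.791, 3.22, 1.09 and 1.86 FPKM and overlapped.

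In shares of the Mxi1 level, NM_010847 held 61.4% and 67.2% in WT-1 and WT-2 and 87.2% and 84.4% in KI-1 and KI-2. The KI share was thus 21.5 percentage points higher (85.8% ± 1.99 against 64.3% ± 4.06, SD, n = 2; exact two-sided permutation p = 0.33), and between 18.6 and 24.4 points higher without any 1 library. NM_001008542, not examined for such a helix, held 7.96% and 25.4% in WT and 10.4% and 15.6% in KI. NM_001008543 held 30.6% and 7.38% in WT and 2.43% and 0.0023% in KI. That form's difference was -17.8 points, and it rested on WT-1, being -6.16 points without it. In the fit over 13826 transcripts, the log2 difference of NM_010847 was 0.37 with SE 0.26 and that of NM_001008543 was -1.32 with SE 0.51 (limma, adjusted p = 1 for both, unadjusted p = 0.0464 for the second). Without WT-1 they were 0.16 and -0.79, and without WT-2 0.58 and -1.85. With a pseudocount of 0.1 in place of 1 the difference of NM_001008543, whose KI-2 value is close to 0, was -3.25 with SE 1.56.

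These transcripts differ only in the first exon and in where the last ends, so the split between them rests on the authors' estimate per transcript. Of the 14 network transcripts with a mean of at least 1 FPKM, 0 passed the adjusted test, against 0% of all tested transcripts, and 1 had an unadjusted p under 0.05, against 1.13%. These 2 Mxi1 transcripts were the only ones among the 14 whose groups did not overlap, against 16.8% of all tested transcripts. That count is not above the background. Among the 10 transcripts of the 4 tested genes with several forms, 7 had shares without overlap, against 27.2% of the transcripts of all such genes; the shares of a gene sum to a whole and are not independent. Of these, 2, again those of Mxi1, had mean shares at least 10 points apart, against 11.2%.

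The main Mlx form NM_001159385 stood at 3.86 and 8.14 FPKM in WT-1 and WT-2 and at 5.63 and 10.4 in KI-1 and KI-2, higher in KI within both numbers. The genotypes overlapped, and the log2 difference of 0.39 with SE 0.44 (limma, adjusted p = 1) was as large as that of Mxi1 NM_010847, but was -0.071 without WT-1 and -0.0083 without KI-2. Its share of the Mlx level was 53.3%, 71.1%, 70.9% and 80.7% in that order, 13.6 points higher in KI on average and overlapping. The form without the 90-base exon, NM_001159384, fell below the filter and took 11.5% and 10.95% in WT and 7.97% and 2.93% in KI. NM_011550 stood at 2.55, 2.06, 1.68 and 2.11 FPKM in the same order of libraries and overlapped.

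For Myc, NM_010849 held 78.4% and 79.6% in WT-1 and WT-2 and 74.2% and 75.4% in KI-1 and KI-2, and NM_001177353 the rest. Reads can tell these forms apart only by 3 coding bases and by their untranslated ends. The Max form with the 27-base exon held between 32.2% and 33.9% in all libraries, with both KI libraries lowest.

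**Figure D2:**
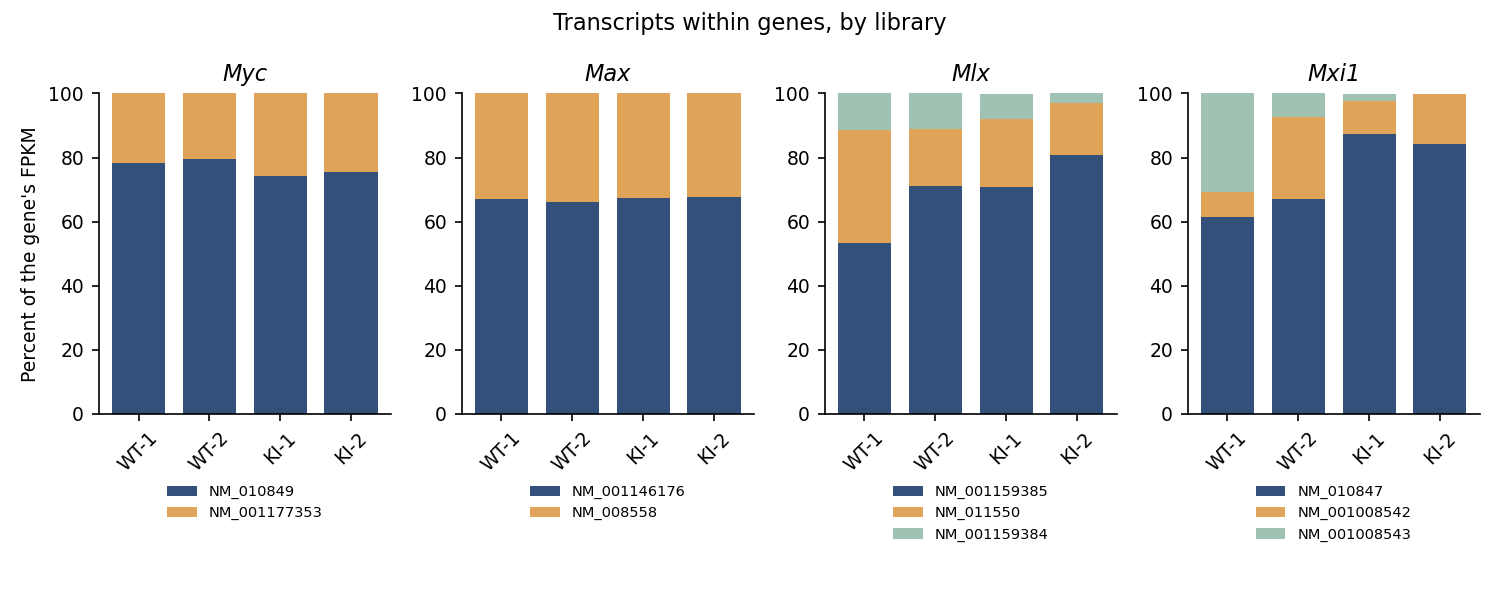
Percent of each gene's FPKM held by its transcripts in the 4 libraries, for Myc, Max, Mlx and Mxi1. In Mxi1 the form NM_010847 (dark) held 61.4% and 67.2% in WT and 87.2% and 84.4% in KI, while the Max bars were nearly level.

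The authors' deposited table gave a comparison per transcript on normalized values. As those values show, the libraries numbered 1 and those numbered 2 had nearly equal sums per transcript. The difference between the numbers therefore hardly entered the spread of that comparison, unlike in limma's test above. The p-values of the 2 cannot be set side by side. In the authors' deposited table, 4 of the 17 network transcripts had an unadjusted p under 0.05, against 21.6% of all transcripts, which is near the same share, and 0 had an adjusted p under 0.05, against 0.0161%. In the authors' deposited table these 4 were the Mlx form NM_001159385 (signed fold 1.22, p = 0.0143), Mycn (-1.35, p = 0.0208), and the Mxi1 forms NM_001008543 (-1.97, p = 0.0224) and NM_010847 (1.22, p = 0.0310). Their adjusted p in the authors' deposited table was between 0.146 and 0.191.

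The library numbers were compared in the same way. All 9 tested genes had a higher level in number 2, and 4 of them, Mxd4, Mlx, Myc and Max, rose by limma's test, against 35.6% of all tested genes called higher, and 0 fell, against 4.6%. The differences were 0.71 with SE 0.081 for Mxd4 (adjusted p = 0.00382), 0.62 with SE 0.11 for Mlx (0.00948), 0.46 with SE 0.10 for Myc (0.0163) and 0.41 with SE 0.080 for Max (0.0112) on the log2 scale. The median over all tested genes was 0.27 in this comparison. With libraries scaled to the same median, 1 network gene, Mxd4, was called, at 0.45 with SE 0.081 (adjusted p = 0.0166), against 9.12% of all tested genes called higher and 10.4% lower. Under that scaling Mlx stood at 0.36, Myc at 0.20 and Max at 0.15, and Mxi1 and Mnt turned to -0.014 and -0.0046. Without WT-2 and without KI-2, Myc (adjusted p = 0.0783 and 0.0842) and Max (0.0581 and 0.0876) no longer passed, nor did Mlx without KI-2 (0.0840). In the same comparison without that scaling, all 6 B cell markers (median 1.18) and all 5 stem cell markers (0.64) were called higher. There, 6 of 10 immediate early genes and 4 of 4 mature neutrophil markers were called lower. With libraries scaled to the same median, 3 of the 6 B cell markers (median 0.92) and 0 of the 5 stem cell markers (0.39) were called higher. That scaling left 6 immediate early genes and 4 mature neutrophil markers called lower. Their part in the values of the network genes was not tested. The labels do not say what the numbers stand for.

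Mycn in number 2 was 1.47 times its level in number 1 in WT and 1.99 times in KI. Mxd3 was 1.15 times in WT and 2.15 times in KI. Mxd4 was 1.67 and 1.66 times. Whether these differed between the genotypes could not be tested with 1 library per number and genotype.

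**Figure D3:**
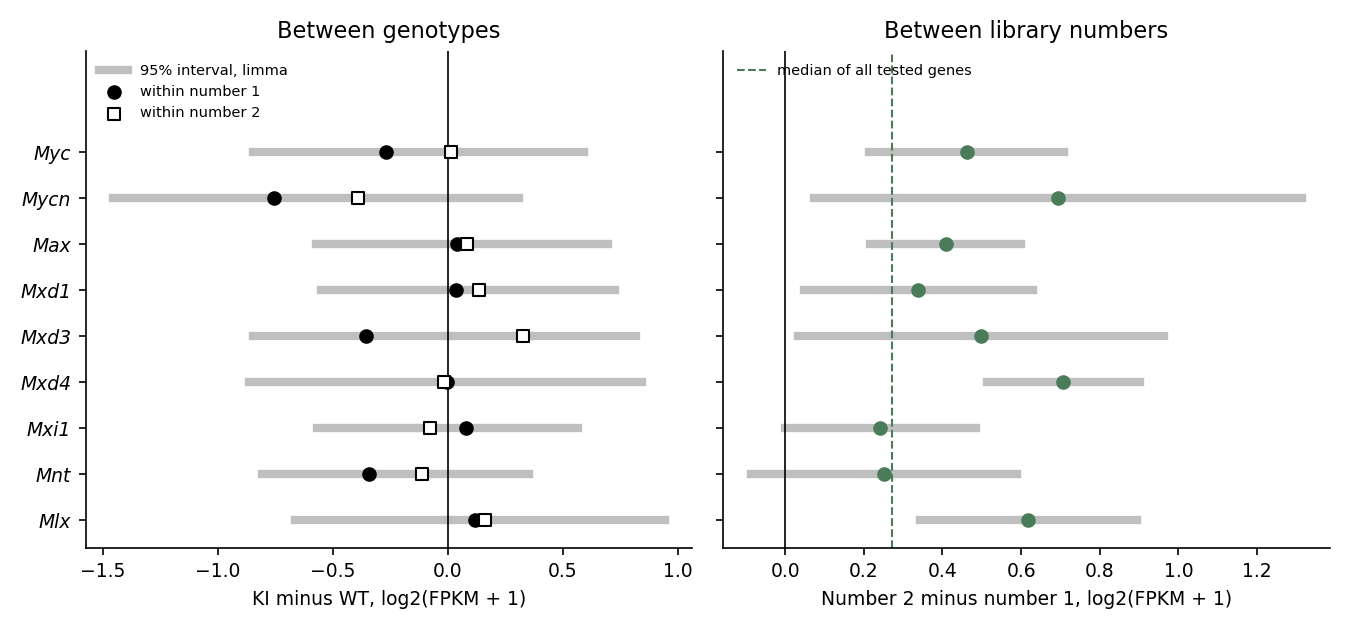
Left, KI minus WT on the log2(FPKM + 1) scale within number 1 (filled circles) and number 2 (open squares), with the 95% interval of limma's fit in grey. Right, number 2 minus number 1 with its 95% interval and the median of all tested genes (dashed, 0.27). All genotype intervals include 0. Between the numbers the intervals, which are not adjusted for the number of genes, lie above 0 for all but Mxi1 and Mnt.

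Genes that act with the network or downstream of it were read from 7 lists. By rule the 2 genes with the smallest unadjusted p in each list were named. This choice favours genes whose genotypes lie apart, and 13.5% of all tested genes had groups that did not overlap. No gene on these lists passed limma's test between KI and WT, as none did among all tested genes (0%), and each gene named had an adjusted p of 1. Of 33 tested genes that MYC is known to activate, 29 had a higher mean log2 level in KI, against 52.1% of all tested genes, a share that stands beside the other lists too. In both numbers 23 were higher, against 28.7% of all tested genes. These genes were read in the same libraries and are not independent of each other. The median log2 difference was 0.13, beside 0.0075 over all tested genes, with 0.060 in number 1 and 0.19 in number 2. The count was 18 of 33 without KI-2, 23 without WT-1, 26 without WT-2 and 28 without KI-1. B cell markers summed to 24.8 and 57.7 FPKM in WT and to 30.8 and 98.7 in KI, with 6 of 6 higher in KI and 4 of them in both numbers. The part of these and of the granulocyte-monocyte markers in this count was not tested. Cdc25a, a phosphatase that drives cell cycle entry, stood at 14.3 and 13.9 FPKM in WT and at 18.6 and 18.1 in KI, a difference of 0.36 with SE 0.20. Both KI libraries lay above both WT libraries, with 0.36 within each number. Rrs1, a ribosome assembly factor, stood at 21.3, 26.5, 26.1 and 32.4 FPKM, higher in KI by 0.28 within each number.

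Among genes that MYC is known to repress, 5 of 8 were higher in KI, with a median of 0.042. Itgal, an integrin of blood cells, stood at 18.3 and 15.8 FPKM in WT-1 and WT-2 and 22.6 and 20.9 in KI-1 and KI-2. The cell cycle inhibitor Cdkn1a stood at 31.1, 21.2, 26.2 and 40.9 FPKM, lower in KI in number 1 and higher in number 2. Among 14 MYC co-activators 11 were higher, with a median of 0.057, and 5 were higher and 0 lower in both numbers. The acetyltransferase gene Ep300 stood at 23.01, 21.99, 24.96 and 23.47 FPKM, and Kat5, the acetyltransferase of the TIP60 complex, at 31.8, 42.6, 32.9 and 34.9.

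A list of 16 genes held those of the SIN3 and NCOR co-repressor complexes, which the MXD proteins and MNT recruit. It also held Zbtb17, which is not part of these complexes. Of the 16, 4 were higher and the median was -0.029, with medians of -0.039 and 0.022 within the numbers. In both numbers 4 were higher and 3, among them Zbtb17, were lower. Sap18 stood at 4.40, 7.24, 5.56 and 7.60 FPKM and Ing2 at 25.3, 16.8, 20.4 and 17.2, both overlapping between the genotypes. Among 17 genes of MYC turnover 11 were higher, with a median of 0.060. Usp28, which removes ubiquitin from MYC, stood at 6.18, 6.73, 4.71 and 6.09 FPKM, with both KI libraries below both WT libraries. Skp2, a ubiquitin ligase subunit for MYC, stood at 5.06, 6.75, 6.35 and 7.70 FPKM, higher in KI in both numbers.

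Mga, a MAX partner that works with a Polycomb complex, stood at 15.1 and 11.03 FPKM in WT and at 16.3 and 10.9 in KI, and Mlxip, which encodes the Mondo protein MONDOA, at 19.8, 19.05, 21.2 and 16.4. Both were lower in number 2 than in number 1 within each genotype. Of 3 tested targets of the Mondo proteins, 2 had a higher mean in KI. Txnip, the most abundant of them and named outside the rule, stood at 83.1, 133.9, 81.8 and 105.7 FPKM, lower in KI in both numbers. The hexokinase gene Hk2 stood at 10.9, 12.01, 11.9 and 16.3 FPKM, and the arrestin-domain gene Arrdc4 at 3.27, 5.47, 5.63 and 5.40.

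**Figure D4:**
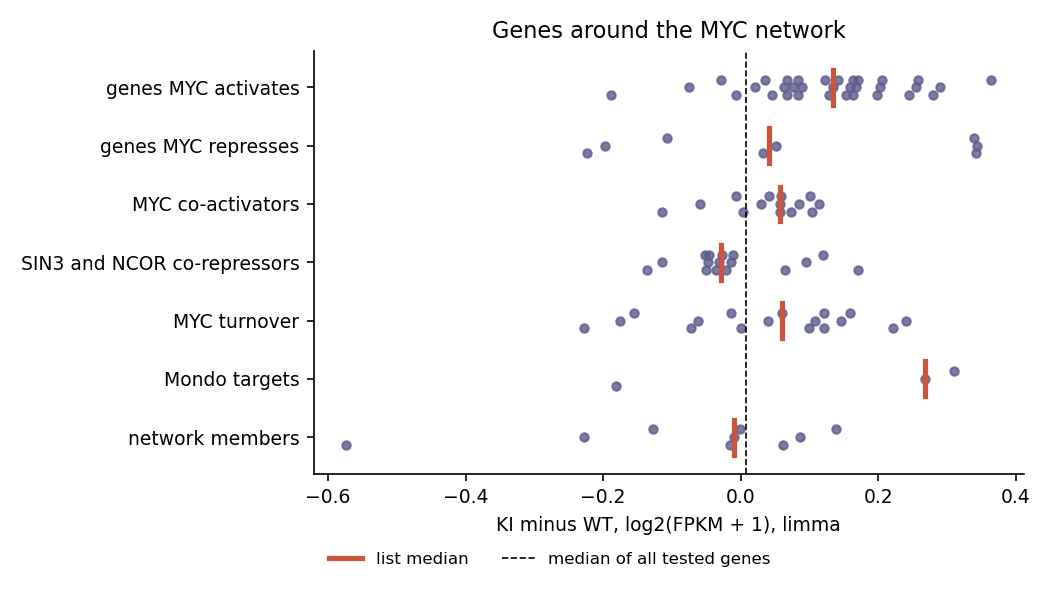
KI minus WT on the log2(FPKM + 1) scale for each tested gene (points) of 6 lists around the network and of the network itself, with list medians in red and the median of all tested genes dashed. The genes MYC activates have a median of 0.13, and the network genes one of -0.0100.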

How the data were processed

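The submitters' processing notes name TopHat, Cufflinks and the mouse build mm10 (GRCm38). Their versions and settings are not given in the sources used here. For every library the authors deposited FPKM values, 1 per RefSeq transcript, none of them 0 and the lowest 1e-06. The authors also deposited normalized log2 values with group means and SDs, a signed fold, a test score and p-values, by a method that no source used here states. Without counts, depth is unknown and intervals of counting error cannot be given. The tests had been planned for values per gene, and since values were per transcript they were summed by symbol.

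FPKM was summed per symbol, kept at a mean of at least 1 over the 4 libraries, and analysed as log2(FPKM + 1) with limma 3.58.1 (R 4.3.3; prior variance following the mean), 1 term (genotype or library number), two-sided tests and Benjamini-Hochberg adjustment over all genes at 0.05. The same fit was run on 13826 transcripts. The procedure was run on simulated data drawn with and without a difference between the library numbers. Recovery of the larger added differences was required only in draws without it. That check does not show what the fit recovers in data like these. Single values were compared by exact permutation with scipy 1.17.1. Exon structure came from GENCODE M21 and promoters from RefSeq (GRCm38.p6). The members and lists were chosen with earlier results of these data known. All 10 members were named, and from each other list the 2 genes with the smallest unadjusted p. Mlxipl, Nop58 and Gas1 were not analysed here. A further stem cell marker is not reported here. Alternatives were the pseudocount (0.1), no filter, median and quantile scaling, the highest transcript per symbol, the library number as a term, and leaving out each library.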

Additional observations from a re-analysis of the deposited data

How the results depend on the processing

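The number of network genes called between KI and WT was 0 under every alternative run. With the library number as a replicate block, limma called 1 gene and 0 transcripts between the genotypes, neither of the network, and the 9 network genes had adjusted p between 0.678 (Mycn, SE 0.13, unadjusted p = 0.00524, where it was 0.163 without the block) and 0.999. That block called 5 network genes between the numbers, adding Mycn (0.69, adjusted p = 0.0124). The libraries share only a number, with deviations from the group means correlated by 0.691 across genes between WT-1 and KI-1. Median and quantile scaling lowered the genes called between the numbers from 4452 to 2163 and 2187 and the network genes from 4 to 1 and 1, and turned Mxi1 to -0.014 and -0.011 and Mnt to -0.0046 and -0.0053 there. Between the genotypes Mxi1 turned to 0.0038 under quantile scaling and to 0.37 with its highest transcript alone, which leaves out the 2 lower forms.

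Leaving out 1 library leaves the numbers unbalanced between the genotypes, and the lone library of a group is assumed to vary like the others. Genes called between the genotypes then ran from 7 to 37 and transcripts from 13 to 115, genes called between the numbers from 1162 to 4808, network genes among them from 1 to 7, the median over network genes from -0.36 to 0.28, the MYC family share difference from -4.08 to -1.99 points, and the MYC-activated genes higher in KI from 18 to 28. Fold changes between the genotypes that turned sign ran from -0.43 to 0.17 for Myc, -0.15 to 0.28 for Max, -0.11 to 0.28 for Mxd1, -0.44 to 0.41 for Mxd3, -0.37 to 0.35 for Mxd4, -0.16 to 0.16 for Mxi1 and -0.18 to 0.46 for Mlx. By transcript they ran from -0.14 to 0.30 (NM_001146176), -0.18 to 0.22 (NM_008558), -0.071 to 0.84 (NM_001159385), -0.79 to 0.45 (NM_001008542), -0.13 to 0.39 (NM_001177353) and -0.52 to 0.11 (NM_010849). Among list genes they ran from -0.23 to 0.12 (Mlxip), -0.22 to 0.31 (Mga), -0.32 to 0.089 (Kat5), -0.13 to 0.48 (Sap18) and -0.42 to 0.15 (Ing2). Mycn (-1.01 to -0.13), Mnt (-0.41 to -0.044) and both non-overlapping Mxi1 forms kept their sign. Alternatives for single transcripts and their shares, lists, ratios and single genes between the numbers were added after the data were seen. The cause of these shifts was not tested.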
